A study of Homo sapiens with 8 samples.

Results

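The genes described here encode the machinery of ER-associated degradation (ERAD). The listed set holds 33 genes, and a gene was measured where the array had a probe set annotated with that gene symbol alone. This held for 31 genes, of 19775 genes measured in all, and the brightest such probe set, averaged over all 8 arrays, stood for each gene. SYVN1 (the HRD1 ubiquitin ligase) and UBXN6 (a VCP cofactor) had only probe sets shared with a microRNA gene symbol, 1 and 2 respectively, and are given no values.

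RNA was profiled on 8 one-colour Affymetrix arrays, 1 per sample, as log2 expression values. T47D is an oestrogen receptor-positive luminal breast cancer line, and MDA-MB-231 is a triple-negative breast cancer line with mesenchymal features. Each line carried a lentiviral control hairpin (shCtrl) or a lentiviral hairpin against XBP1 (shXBP1), in cells kept under puromycin after infection, and the 4 groups held 2 arrays each. Every group, the controls included, was in medium without glucose at 0.1% O2 for 24 h. The comparisons therefore ask how the ERAD transcripts differ with the XBP1 hairpin under combined stress, and unstressed cells were not analysed here. How many hairpins against XBP1 were used is not stated. Effects of losing XBP1 and other effects of a hairpin cannot be told apart here. The labels call the replicates biological without saying whether they were separate infections, so the p-values reflect only how far these samples differ from one another, and that spread may be technical.

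ERAD removes misfolded proteins from the endoplasmic reticulum. Lectins and mannosidases in the lumen pick out substrates by their trimmed glycans, membrane ubiquitin ligases and derlins form a route across the membrane, and the ATPase VCP pulls the ubiquitinated chains out to the proteasome. XBP1, spliced by the sensor IRE1, is a transcription factor that acts in the unfolded protein response and raises many of these genes in secretory cells.

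Differences below are log2 values, shXBP1 minus shCtrl where nothing else is said, each with its SE (standard error) from limma. A gene is said to rise, fall or pass where its limma p-value, adjusted by Benjamini-Hochberg over all 19775 genes, was under 0.05. The median probe set of the array read 5.96, and differences between levels under or near it are compressed. XBP1 itself fell in both lines, from 12.41 and 12.56 on the T47D shCtrl arrays to 7.52 and 7.16, and from 10.83 and 10.69 to 7.13 and 6.69 in MDA-MB-231. The fall was larger in T47D (-5.15, SE 0.17) than in MDA-MB-231 (-3.85, SE 0.17), a difference of 1.30 (SE 0.25, adjusted p = 0.00745). The part of this unequal fall in differences between the lines' effects was not tested. The line markers followed the labels. ESR1, the oestrogen receptor, read 10.24 to 10.67 in T47D and 4.82 to 5.09 in MDA-MB-231, while the mesenchymal gene VIM read 6.30 to 6.88 and 14.30 to 14.67. The leukocyte gene PTPRC read 3.75 to 4.22 and the fibroblast gene DCN 6.19 to 6.54 on all 8 arrays, whereas COL1A1 read 8.97 to 10.21 in both lines. Of the other leukocyte genes LYZ read 3.79 to 4.57, CD3E 5.82 to 6.31 and CD79A 7.02 to 7.38, the last above the median probe set. These are bulk RNA samples, in which fewer cells with a transcript and less of it per cell cannot be told apart.

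In T47D the XBP1 hairpin lowered 10 of the 31 genes and raised 3, against 13.5% and 15.5% of all genes. The largest falls were EDEM2, SELENOS, VCP and OS9, and the rises were HERPUD2, UBE2G2 and SEL1L. In MDA-MB-231 it lowered 7 and raised 5, against 6.68% and 10.6% of all genes, with UBXN4 and RNF139 the largest falls and ERLIN1 and ERLIN2 the largest rises. Without T47D shCtrl replicate 2 the falls in T47D numbered 5, without T47D shXBP1 replicate 2 they numbered 6, and without MDA-MB-231 shCtrl replicate 2 the falls in MDA-MB-231 numbered 4. Fitting the MDA-MB-231 arrays alone left 3 falls there, and averaging each gene's probe sets left 1 rise in T47D. In either line 13 (41.9%) and 12 (38.7%) of the 31 passed, beside 29.1% and 17.2% of all genes. The shares of all genes include dim genes, whereas 63 of the 73 probe sets of the 31 genes read above the array median. How far brightness accounts for the higher shares was not tested. The 31 differences had a median of -0.18 (T47D) and -0.03 (MDA-MB-231), beside -0.02 and 0.03 over all genes. At least 1 of the knockdown comparisons was passed by 20 genes (64.5%, against 37.6% of all genes), and both by 5 (16.1%, against 8.66%). Of these 5, HERPUD2 rose in both lines, and SELENOS and RNF139 fell in both. By its brightest probe set DERL1 fell in T47D and rose in MDA-MB-231. With the probe sets of DERL1 averaged, its T47D difference was -0.23 and did not pass (adjusted p = 0.0803). FAF2, the last of the 5, did as DERL1 by its brightest probe set and the reverse by its other one, so that it has no settled direction. By its brightest probe set it is counted above among the falls in T47D and the rises in MDA-MB-231. In MDA-MB-231 the difference between the 3' and 5' probe sets of ACTB, a sign of RNA integrity, was 1.30 and 1.21 on the shCtrl arrays and 0.89 and 1.10 on the shXBP1 arrays, and its part in the changes was not tested. For GAPDH it was 0.27 and 0.33 against 0.30 and 0.32.

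**Figure D1:**
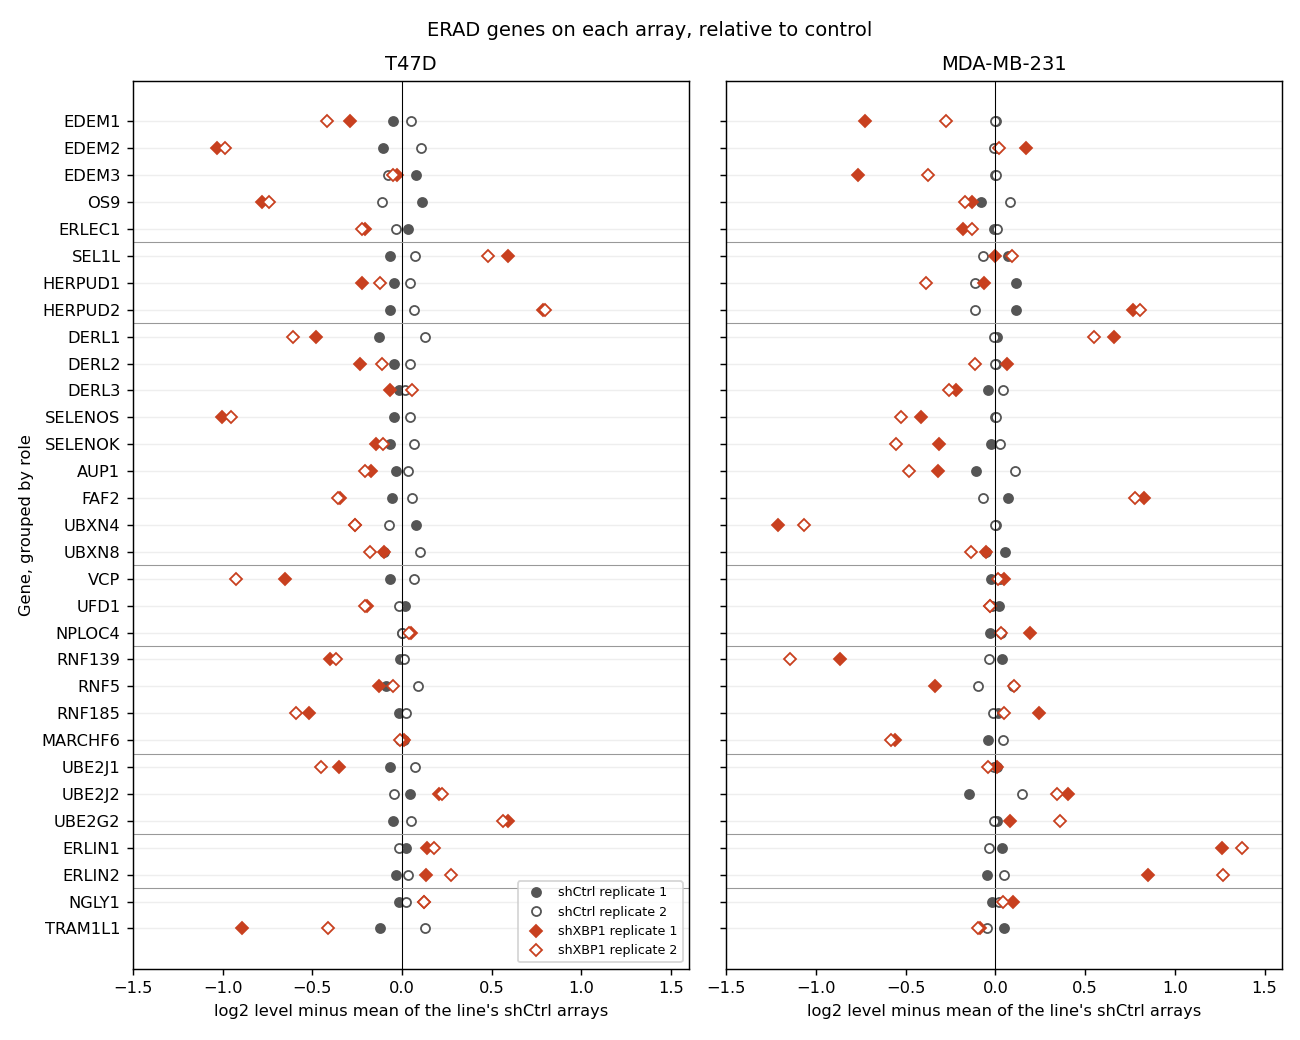
Level of each of the 31 ERAD genes on each array (log2, minus the mean of the same line's shCtrl arrays), with T47D on the left and MDA-MB-231 on the right. Grey circles are shCtrl and red diamonds shXBP1, filled for replicate 1 and open for replicate 2, and horizontal lines separate the roles in the order of the text. EDEM2 and SELENOS lie lowest in T47D, UBXN4 and RNF139 lowest in MDA-MB-231, and the 2 erlins highest in MDA-MB-231.

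The 300-base windows around the transcription start (250 bases before to 50 after, RefSeq, GRCh38.p14) were searched on both strands for the DNA elements tied to this response, since several genes fell together. The elements were ERSE (CCAAT, any 9 bases, CCACG), ERSE-II (ATTGG, any 1 base, CCACG) and the core of the UPRE (TGACGTGG). ERSE and ERSE-II share the end CCACG, and the complement of the UPRE core also holds it. Of the 24 listed genes with a window, 0 held ERSE, 1 ERSE-II (HERPUD1) and 2 the UPRE core (VCP and UBE2J1). Of all 35116 windows, 0.0769%, 0.0541% and 0.729% held them, where a gene such as NGLY1 or NPLOC4 can have more than 1 window. The 24 genes include SYVN1 and UBXN6, which have no values here. No window was available for DERL1, DERL3, ERLIN1, ERLIN2, MARCHF6, RNF139, RNF185, UBXN8 and UFD1. By their brightest probe sets VCP and UBE2J1 fell in T47D and did not pass in MDA-MB-231, while HERPUD1 passed in neither. The other VCP probe set gave -0.11 in T47D (adjusted p = 0.525). Whether the elements bear on these changes was not tested. The windows of these 3 genes are shown with the match in capitals, followed by those of EDEM2 and SELENOS, the largest falls in T47D, where no match was found. The VCP window is chr9:35072576-35072875 on the minus strand, with the match starting at position -189 from the start site. That of UBE2J1 is chr6:89352673-89352972 on the minus strand, with the match on the opposite strand from position -231. HERPUD1 has chr16:56931892-56932191 on the plus strand, with the match from position -117. EDEM2 has chr20:35147287-35147586 and SELENOS chr15:101277436-101277735, both on the minus strand. All are written 5' to 3' along the gene.
VCP: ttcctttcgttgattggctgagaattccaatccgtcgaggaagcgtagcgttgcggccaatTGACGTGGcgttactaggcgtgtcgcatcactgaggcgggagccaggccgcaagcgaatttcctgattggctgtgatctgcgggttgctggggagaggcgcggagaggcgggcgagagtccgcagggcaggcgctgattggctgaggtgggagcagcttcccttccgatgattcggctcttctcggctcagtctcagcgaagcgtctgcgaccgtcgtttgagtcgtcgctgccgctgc
UBE2J1: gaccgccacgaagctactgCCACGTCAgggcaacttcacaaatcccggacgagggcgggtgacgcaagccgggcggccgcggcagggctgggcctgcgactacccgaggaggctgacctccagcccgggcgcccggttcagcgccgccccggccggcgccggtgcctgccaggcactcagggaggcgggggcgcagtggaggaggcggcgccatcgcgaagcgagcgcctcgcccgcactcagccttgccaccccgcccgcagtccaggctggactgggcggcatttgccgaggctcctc
HERPUD1: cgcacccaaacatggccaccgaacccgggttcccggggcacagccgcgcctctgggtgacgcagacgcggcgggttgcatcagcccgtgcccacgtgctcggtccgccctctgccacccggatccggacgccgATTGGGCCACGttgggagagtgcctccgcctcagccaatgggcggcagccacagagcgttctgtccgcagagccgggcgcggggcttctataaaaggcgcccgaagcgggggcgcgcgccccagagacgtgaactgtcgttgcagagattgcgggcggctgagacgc
EDEM2: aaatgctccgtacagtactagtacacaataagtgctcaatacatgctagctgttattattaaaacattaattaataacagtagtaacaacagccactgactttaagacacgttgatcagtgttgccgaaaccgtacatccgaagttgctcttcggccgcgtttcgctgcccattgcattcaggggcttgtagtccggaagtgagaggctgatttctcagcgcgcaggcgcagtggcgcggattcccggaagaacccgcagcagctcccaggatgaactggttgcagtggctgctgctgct
SELENOS: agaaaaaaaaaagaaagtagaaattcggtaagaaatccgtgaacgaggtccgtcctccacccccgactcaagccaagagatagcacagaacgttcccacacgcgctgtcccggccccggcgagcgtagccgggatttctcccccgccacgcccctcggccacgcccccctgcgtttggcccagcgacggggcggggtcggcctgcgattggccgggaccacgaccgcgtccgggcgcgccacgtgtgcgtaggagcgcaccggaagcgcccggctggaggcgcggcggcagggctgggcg

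Among the luminal lectins and mannosidases, 2 of 5 fell in T47D and 1 of 5 in MDA-MB-231, where 13.5% and 6.68% of all genes fell. EDEM2, which starts the trimming of mannose from misfolded glycoproteins, read 8.09 and 8.30 on the T47D shCtrl arrays and 7.16 and 7.21 on the shXBP1 arrays. Both shXBP1 arrays thus lay well under both controls, a 2.02-fold fall (-1.01, SE 0.10, adjusted p = 0.000297). In MDA-MB-231 the same gene read 8.40 and 8.38 with shCtrl and 8.56 and 8.41 with shXBP1 (0.10, SE 0.10, adjusted p = 0.594). The knockdown effects differed between the lines by 1.11 (SE 0.15, adjusted p = 0.00154).

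OS9, a lectin that passes trimmed substrates to the HRD1 complex, read 11.16 and 10.94 on T47D shCtrl arrays against 10.27 and 10.31 with shXBP1. This was a fall of 0.76 (SE 0.11, adjusted p = 0.00133), and its second probe set gave -0.78. In MDA-MB-231 OS9 stood at 10.09 and 10.25 against 10.04 and 10.00 (-0.15, adjusted p = 0.400). The effects differed by 0.61 (SE 0.15, adjusted p = 0.0225), a difference that no longer passed without T47D shCtrl replicate 1 (0.50, adjusted p = 0.0706), T47D shXBP1 replicate 1 or 2 (adjusted p = 0.0799 and 0.0678), MDA-MB-231 shCtrl replicate 1 (0.0681) or MDA-MB-231 shXBP1 replicate 1 (0.0613). ERLEC1, the other lectin of this kind, read 11.98 and 11.91 against 11.74 and 11.72 in T47D (-0.21, adjusted p = 0.0971) and 11.34 and 11.36 against 11.17 and 11.22 in MDA-MB-231 (-0.15, adjusted p = 0.272). Its shXBP1 arrays lay below its shCtrl arrays in both lines, without passing the test. In T47D it passed with dim genes left out (adjusted p = 0.0395) and with limma's trend and robust fitting (0.01).

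EDEM3, another mannosidase-like protein, fell in MDA-MB-231 from 9.47 and 9.48 to 8.71 and 9.10 (-0.57, SE 0.13, adjusted p = 0.0241), with the shXBP1 replicates far apart. That call was lost without MDA-MB-231 shCtrl replicate 1 (adjusted p = 0.0872) or 2 (0.0797), without shXBP1 replicate 1 (-0.38, adjusted p = 0.0812) and with the 4 arrays of the line alone in the fit (0.0790). Its dimmer probe sets gave -0.92 and 0.14 in that line. In T47D it read 9.42 and 9.26 against 9.31 and 9.29. EDEM1, often used as a readout of XBP1 activity, read 9.12 and 9.22 against 8.88 and 8.75 in T47D (-0.36, SE 0.15, adjusted p = 0.112). In MDA-MB-231 it read 9.21 and 9.20 against 8.48 and 8.93 (-0.50, SE 0.15, adjusted p = 0.0535). EDEM1 was lower on every shXBP1 array of both lines but missed the threshold in each. Without MDA-MB-231 shXBP1 replicate 2 the difference in that line was -0.73. With all arrays kept, EDEM1 passed in T47D when only the 4 arrays of that line were fitted (adjusted p = 0.0351) and with limma's trend and robust fitting (0.0356). In MDA-MB-231 it passed with dim genes left out (0.0315), probe sets averaged (0.0445) and trend and robust fitting (0.0077). The other alternatives that kept all arrays left it short of the threshold in each line.

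For the HRD1 complex 3 genes had values, of which 2 rose in T47D (15.5% of all genes rose) and 1 in MDA-MB-231 (10.6%). SEL1L, the adaptor that holds the HRD1 ligase and its substrates together, read 11.67 and 11.81 on T47D shCtrl arrays and 12.33 and 12.22 with shXBP1. It rose by 0.54 (SE 0.10, adjusted p = 0.00502). A second SEL1L probe set gave 0.50 and the third -0.02, and the mean over the 4 gave 0.34 (adjusted p = 0.0921). In MDA-MB-231 SEL1L read 9.20 and 9.06 against 9.13 and 9.22 (0.04, adjusted p = 0.824). The difference of the effects was -0.49 (SE 0.14, adjusted p = 0.0389), which passed with all 8 arrays but not without any of T47D shCtrl replicate 1 (-0.42) or 2 (-0.56), T47D shXBP1 replicate 1 (-0.44) or 2 (-0.55), MDA-MB-231 shCtrl replicate 1 (-0.43), or MDA-MB-231 shXBP1 replicate 1 (-0.45) or 2 (-0.53), with adjusted p from 0.0529 to 0.137.

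HERPUD2 rose alike in both lines. It encodes a relative of HERPUD1, a ubiquitin-like membrane protein that links substrates to the HRD1 ligase. In T47D it read 10.05 and 10.18 with shCtrl and 10.90 and 10.91 with shXBP1 (0.79, SE 0.10, adjusted p = 0.000959). In MDA-MB-231 it read 8.24 and 8.01 against 8.89 and 8.93 (0.78, SE 0.10, adjusted p = 0.00235). No shXBP1 array overlapped the controls of its line, and the effects differed by -0.01 (95% interval -0.35 to 0.33). Its other probe sets gave 0.93 and 0.94 in T47D and 0.72 and 0.75 in MDA-MB-231. HERPUD1, one of the strongest ER stress genes in many cells, read 12.20 and 12.29 against 12.02 and 12.12 in T47D (-0.17, interval -0.48 to 0.13) and 12.27 and 12.04 against 12.09 and 11.77 in MDA-MB-231 (-0.22, interval -0.53 to 0.09). Neither difference passed (adjusted p = 0.400 and 0.314).

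Derlins are multi-span membrane proteins that help substrates leave the ER, and DERL1 took opposite directions by its brightest probe set. It read 11.20 and 11.46 with shCtrl and 10.85 and 10.72 with shXBP1 in T47D (-0.55, SE 0.11, adjusted p = 0.00792). In MDA-MB-231 it went from 10.52 and 10.50 to 11.17 and 11.06 (0.61, SE 0.11, adjusted p = 0.00951). The groups did not overlap in either line, and the effects differed by 1.15 (SE 0.16, adjusted p = 0.00186). Other DERL1 probe sets gave -0.21 and -0.19 in T47D, which did not pass, and 0.66 and 0.60 in MDA-MB-231, which did. The dimmest gave 0.03 and -0.37, and the mean over all of them gave -0.23 in T47D (adjusted p = 0.0803). With T47D shCtrl replicate 2 left out the T47D fall missed the threshold (-0.42, adjusted p = 0.0505), as it did with T47D shXBP1 replicate 2 left out (-0.48, adjusted p = 0.0640), and so did the MDA-MB-231 rise without shXBP1 replicate 1 (0.55, adjusted p = 0.0576). DERL2 read 11.57 and 11.66 against 11.38 and 11.50 in T47D and 11.26 and 11.25 against 11.32 and 11.14 in MDA-MB-231, with neither difference passing. DERL3, a derlin of secretory cells, was dim on all arrays, from 6.73 to 7.12, and stood at 0.00 in T47D (interval -0.21 to 0.20) and -0.24 in MDA-MB-231 (adjusted p = 0.114).

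SELENOS, a selenoprotein that ties VCP to the derlins, fell in both lines. It read 12.37 and 12.46 with shCtrl and 11.41 and 11.46 with shXBP1 in T47D, a 1.98-fold fall (-0.98, SE 0.09, adjusted p = 0.000173). The MDA-MB-231 arrays read 12.35 and 12.36 against 11.94 and 11.83 (-0.47, SE 0.09, adjusted p = 0.00978). The control levels were thus close together, and the fall was the larger in T47D, with a difference of 0.51 (SE 0.12, adjusted p = 0.0206). That difference missed the threshold with any of 5 arrays left out, namely T47D shCtrl replicate 2 (0.47, adjusted p = 0.0707), T47D shXBP1 replicate 1 or 2 (0.0814 and 0.0630), MDA-MB-231 shCtrl replicate 1 (0.0537) or MDA-MB-231 shXBP1 replicate 1 (0.0515). With the 4 MDA-MB-231 arrays alone in the fit the fall in that line had an adjusted p of 0.0523. SELENOK, a smaller selenoprotein of the same membrane complex, read 12.58 and 12.63 against 12.29 and 12.05 in MDA-MB-231 (-0.43, SE 0.11, adjusted p = 0.0290) and 12.05 and 12.18 against 11.97 and 12.01 in T47D (-0.13, adjusted p = 0.453). The SELENOK call was lost without T47D shXBP1 replicate 1 or 2, where the difference stayed at -0.43 and the spread that the groups share changed. It was also lost without MDA-MB-231 shCtrl replicate 1 (-0.45) or 2 (-0.41) or MDA-MB-231 shXBP1 replicate 2 (-0.31). With the 4 arrays of the line alone the adjusted p was 0.0948.

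Of the other membrane recruiters, UBXN4 (erasin), a UBX-domain protein that brings VCP to the ER, had the largest fall in MDA-MB-231. It read 11.67 and 11.66 with shCtrl and 10.45 and 10.60 with shXBP1, 2.20-fold lower (-1.14, SE 0.10, adjusted p = 0.000354). In T47D it read 11.66 and 11.51 against 11.32 and 11.32 (-0.27, adjusted p = 0.0760), and the effects differed by -0.87 (SE 0.13, adjusted p = 0.00301). The next 2 probe sets gave -0.38 and -0.51 in MDA-MB-231 and -0.39 and -0.10 in T47D, so that both fell in MDA-MB-231 and the first of them also in T47D (adjusted p = 0.0276), while their differences between the lines, 0.01 and -0.41, did not pass. AUP1, which anchors the conjugating enzyme UBE2G2 at the membrane, read 11.66 and 11.88 against 11.45 and 11.29 in MDA-MB-231 (-0.40, SE 0.11, adjusted p = 0.0413). This call was lost without any of the arrays except MDA-MB-231 shCtrl replicate 1, from -0.29 without MDA-MB-231 shCtrl replicate 2 (adjusted p = 0.168) and -0.32 without shXBP1 replicate 2 (0.149) to -0.48 without shXBP1 replicate 1 (0.0610), and at 0.0644 without either T47D shCtrl array and 0.0779 without either T47D shXBP1 array. AUP1 in T47D read 10.46 and 10.53 against 10.32 and 10.29 (-0.20, adjusted p = 0.235). UBXN8, another VCP tether, read 10.21 to 10.49 in T47D and 10.47 to 10.66 in MDA-MB-231 and passed in neither.

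FAF2 (UBXD8), which recruits VCP to membranes and lipid droplets, was measured by a pair of probe sets that disagreed in sign in both lines. The brighter read 11.13 and 11.24 against 10.84 and 10.83 in T47D (-0.36, SE 0.09, adjusted p = 0.0222). In MDA-MB-231 it read 9.48 and 9.34 against 10.24 and 10.19 (0.81, SE 0.09, adjusted p = 0.00124), giving a difference between the lines of 1.16 (SE 0.13, adjusted p = 0.000833). The dimmer went from a mean of 9.29 to 9.75 in T47D (0.46, adjusted p = 0.0210) and from 8.56 to 7.99 in MDA-MB-231 (-0.57, adjusted p = 0.0128), a difference of -1.03 (adjusted p = 0.00335), with p-values adjusted over all probe sets. Each probe set thus showed opposite effects in the lines, but in opposite order, and no direction is given for the gene. Averaging both gave 0.05 (T47D) and 0.12 (MDA-MB-231). The brighter probe set missed the threshold in T47D with shCtrl replicate 2 of that line left out (-0.30, adjusted p = 0.123), as with shXBP1 replicate 1 (0.101) or shXBP1 replicate 2 (0.110).

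**Figure D2:**
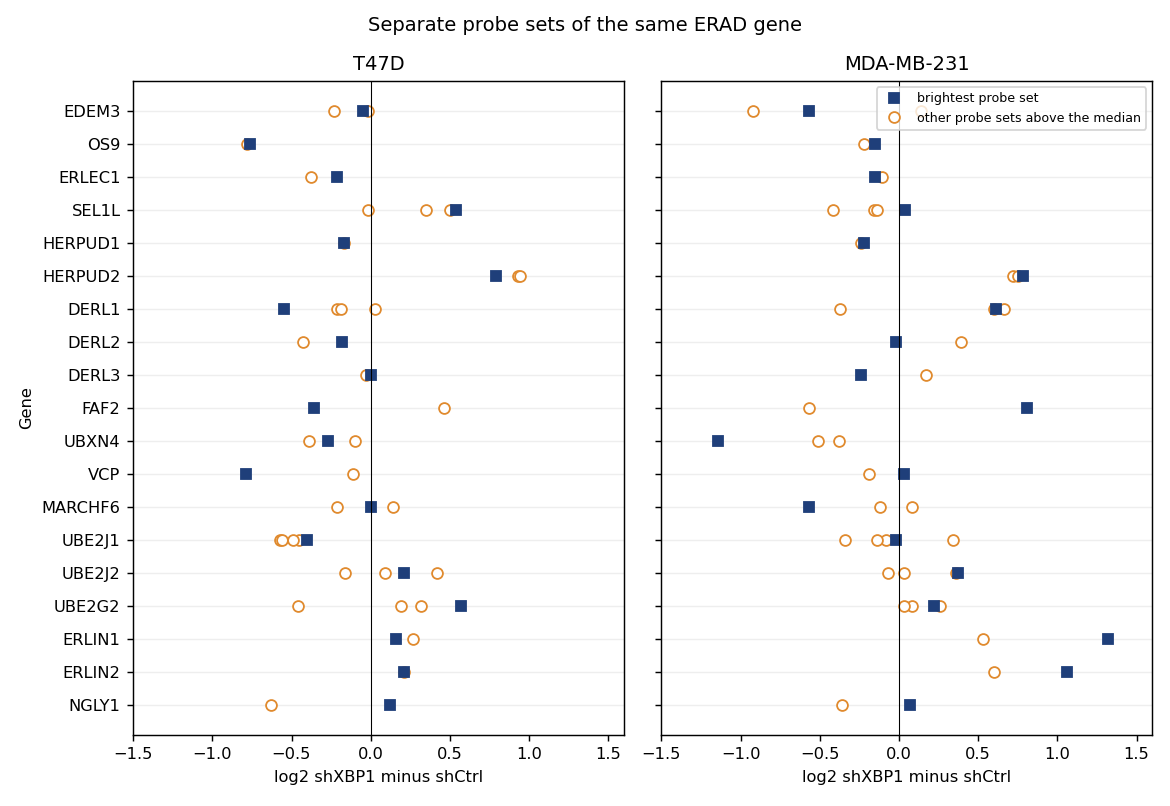
Log2 difference, shXBP1 minus shCtrl, for each probe set above the array median in the 19 ERAD genes with at least 2 such probe sets (T47D left, MDA-MB-231 right). Blue squares are the brightest probe set, used for the gene, and open circles the others. The HERPUD2 points lie together on the right in both panels and the UBE2J1 points together on the left in T47D, while those of FAF2 lie on opposite sides of 0 in both lines.

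VCP is the ATPase that extracts ubiquitinated substrates, with UFD1 and NPLOC4 as its ubiquitin-binding partners. VCP read 10.38 and 10.51 on T47D shCtrl arrays and 9.79 and 9.52 with shXBP1, a 1.73-fold fall (-0.79, SE 0.11, adjusted p = 0.00131). It read 10.88 and 10.93 against 10.95 and 10.92 in MDA-MB-231 (0.03, interval -0.23 to 0.29), and the effects differed by 0.82 (SE 0.16, adjusted p = 0.00752). The other VCP probe set gave -0.11 in T47D and -0.19 in MDA-MB-231 and passed in neither. UFD1 read 10.96 and 10.93 against 10.75 and 10.74 in T47D (-0.20, adjusted p = 0.100) and 12.23 to 12.28 on all MDA-MB-231 arrays. NPLOC4 read 9.33 to 9.38 on the T47D arrays and 9.36 to 9.58 on the MDA-MB-231 arrays. Neither partner passed in either line, and their intervals reached no further than -0.39 and 0.32.

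Of the 4 ubiquitin ligases other than HRD1, 2 fell in T47D (13.5% of all genes fell) and 2 in MDA-MB-231 (6.68%), with RNF139 in both. RNF139 (TRC8), a sterol-sensing membrane ligase, read 10.67 and 10.60 with shCtrl and 9.77 and 9.49 with shXBP1 in MDA-MB-231, a 2.01-fold fall (-1.01, SE 0.11, adjusted p = 0.000969). In T47D it read 12.10 and 12.12 against 11.71 and 11.74 (-0.39, SE 0.11, adjusted p = 0.0294), and the fall was larger in MDA-MB-231 by a difference of -0.62 (SE 0.15, adjusted p = 0.0224). The T47D call was lost without any 1 of the 4 T47D arrays at similar size, with values from -0.38 to -0.41 and adjusted p from 0.0990 to 0.135. The difference was lost without any 1 of those 4 arrays (-0.61 and -0.63 without T47D shCtrl replicates 1 and 2, -0.63 and -0.60 without T47D shXBP1 replicates 1 and 2) or without MDA-MB-231 shCtrl replicate 1 (-0.58, adjusted p = 0.0647). MARCHF6 (TEB4), a large ligase that degrades sterol pathway enzymes, fell in MDA-MB-231 from 11.49 and 11.57 to 10.97 and 10.95 (-0.57, SE 0.08, adjusted p = 0.00308). It read 11.22 to 11.24 on all T47D arrays (0.00, interval -0.19 to 0.19), and the effects differed by -0.57 (SE 0.12, adjusted p = 0.00934). Its next probe sets gave -0.12 and 0.08 in MDA-MB-231, and the mean over all 6 probe sets was -0.18 (adjusted p = 0.186). RNF185, a ligase of misfolded membrane proteins, fell in T47D from 9.70 and 9.74 to 9.20 and 9.13 (-0.55, SE 0.10, adjusted p = 0.00393). MDA-MB-231 read 8.65 and 8.62 against 8.88 and 8.68 (0.15, adjusted p = 0.368), a difference between the effects of 0.70 (SE 0.14, adjusted p = 0.00857). Its close relative RNF5 read 4.57 to 5.01 on all arrays, under the median probe set, and its level cannot be followed here.

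The ER conjugating enzymes moved apart in T47D. UBE2J1, the membrane-anchored enzyme that works with HRD1, fell from 9.95 and 10.09 to 9.67 and 9.57 (-0.40, SE 0.09, adjusted p = 0.0127), and 4 further probe sets above the median gave -0.45 to -0.57. It missed the threshold with T47D shCtrl replicate 2 left out (-0.33, adjusted p = 0.0828) and with T47D shXBP1 replicate 2 left out (-0.35, adjusted p = 0.0982). UBE2G2, the soluble enzyme held at the membrane by AUP1, rose from 9.74 and 9.84 to 10.38 and 10.35 (0.57, SE 0.11, adjusted p = 0.00581). Of its other probe sets 2 gave 0.32 and 0.19, while the dimmest fell by 0.46, and the mean was 0.16 (adjusted p = 0.217). UBE2J2 read 9.28 and 9.19 against 9.44 and 9.46 (0.21, adjusted p = 0.213). In MDA-MB-231 UBE2J1 read 9.29 to 9.34, UBE2G2 10.24 and 10.22 against 10.31 and 10.59, and UBE2J2 8.78 and 9.07 against 9.33 and 9.27 (0.37, adjusted p = 0.0602). By limma 0 of the 3 passed in that line, where 17.2% of all genes did. At an unadjusted p under 0.05 there was 1, UBE2J2, beside 5921 of all 19775 genes. Without MDA-MB-231 shCtrl replicate 2 the UBE2J2 difference was 0.52.

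The erlins gave the largest rises among the 31 genes in MDA-MB-231. ERLIN1 and ERLIN2 form a ring-shaped membrane complex that hands activated IP3 receptors to degradation. ERLIN1 read 10.07 and 10.00 with shCtrl and 11.30 and 11.41 with shXBP1, a 2.50-fold rise (1.32, SE 0.09, adjusted p = 0.000170). ERLIN2 read 8.18 and 8.28 against 9.08 and 9.50, a 2.09-fold rise (1.06, SE 0.14, adjusted p = 0.00249). Second probe sets gave smaller rises of 0.53 and 0.60, which passed. In T47D ERLIN1 read 11.06 and 11.02 against 11.18 and 11.22 (0.16, adjusted p = 0.237) and ERLIN2 11.46 and 11.53 against 11.63 and 11.77 (0.21, adjusted p = 0.349). Between the lines the effects differed by 1.16 (SE 0.12, adjusted p = 0.000665) for ERLIN1 and 0.85 (SE 0.20, adjusted p = 0.0180) for ERLIN2. The latter missed the threshold with T47D shCtrl replicate 2 left out (0.82, adjusted p = 0.0588), as with T47D shXBP1 replicate 1 (0.79, 0.0703) or MDA-MB-231 shCtrl replicate 1 (0.80, 0.0544), and second probe sets gave differences of 0.26 and 0.39, which did not pass (adjusted p = 0.305 and 0.146). RNF170, the ligase that binds the erlins and is not among the 33 genes, read 6.31 and 6.44 against 7.84 and 8.06 in MDA-MB-231 (1.57, SE 0.10, adjusted p = 0.000170) and 9.45 and 9.41 against 9.51 and 9.52 in T47D (0.08, adjusted p = 0.624).

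NGLY1, the cytosolic enzyme that strips glycans from extracted substrates, read 9.74 and 9.78 against 9.88 and 9.88 in T47D (0.12, adjusted p = 0.353) and 9.96 and 10.00 against 10.08 and 10.02 in MDA-MB-231 (0.07, adjusted p = 0.643). TRAM1L1, a relative of the translocation protein TRAM1, fell in T47D from 6.79 and 7.04 to 6.02 and 6.50 (-0.65, SE 0.16, adjusted p = 0.0179), near the median probe set. That fall missed the threshold with T47D shCtrl replicate 2 left out (-0.53, adjusted p = 0.109) and with T47D shXBP1 replicate 1 left out (-0.41, adjusted p = 0.0950). In MDA-MB-231 it read 4.77 to 4.91, under the median.

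**Figure D3:**
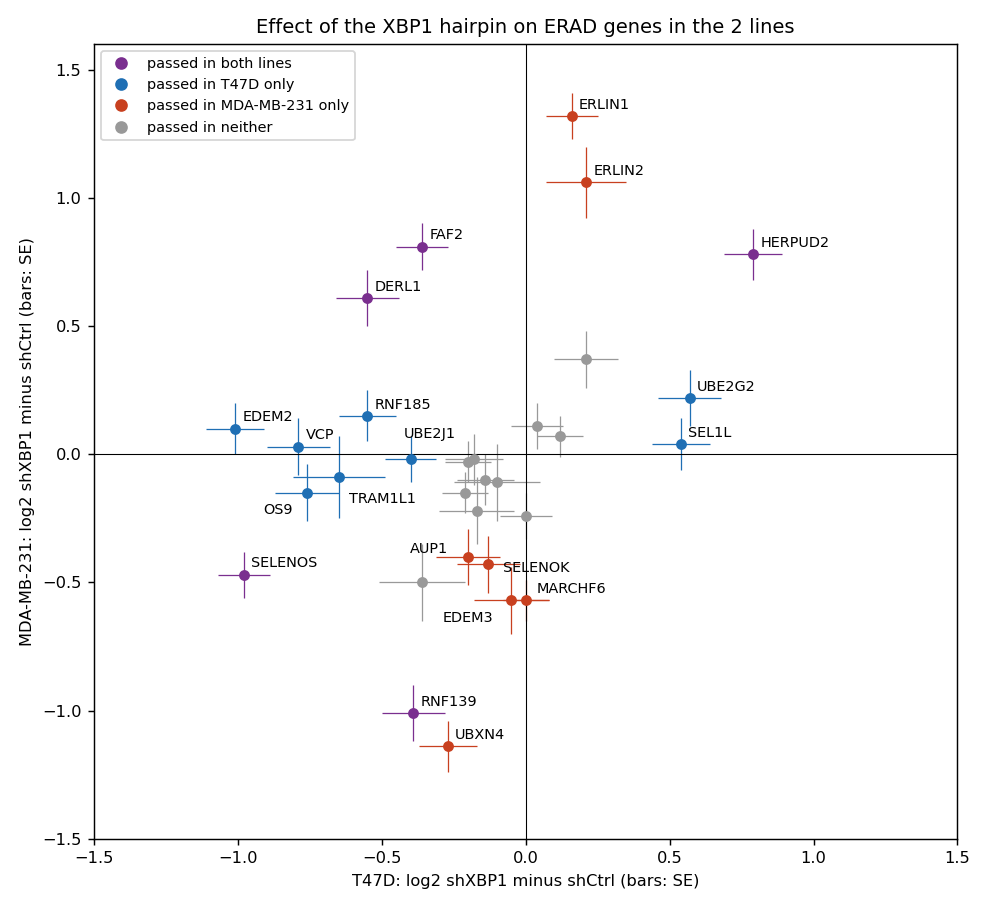
Log2 difference, shXBP1 minus shCtrl, of the 31 ERAD genes in T47D (horizontal axis) and MDA-MB-231 (vertical axis), with limma standard errors as bars; colour gives the lines in which the adjusted p was under 0.05, and genes that passed in at least 1 line are named. HERPUD2 lies high in both, SELENOS and RNF139 low in both, DERL1 and FAF2 at upper left, and the erlins at the top near 0 in T47D.

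Across the 31 genes the effects in the 2 lines had a Pearson correlation of 0.314 and a Spearman correlation of 0.285, beside 0.099 and 0.061 over all 19775 genes. The effects share no array, whether the arrays shared a normalization is unknown, and genes are not independent replicates. The 19775 genes include dim ones, and the part of brightness in these correlations was not tested. The difference between the effects passed for 13 of the 31 genes (41.9%), beside 24.8% of all genes. For 9 of them the MDA-MB-231 effect was the more positive (13.0% of all genes), namely EDEM2, OS9, DERL1, SELENOS, FAF2, VCP, RNF185, ERLIN1 and ERLIN2. For SEL1L, UBXN4, RNF139 and MARCHF6 it was the more negative (11.8% of all genes), a number that fell from 4 to 2 without T47D shCtrl replicate 1 or 2, T47D shXBP1 replicate 1 or 2, or MDA-MB-231 shCtrl replicate 1. The other probe sets of FAF2, VCP, MARCHF6, UBXN4 and DERL1 included at least 1 of the other sign for this difference.

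The lines already differed with the control hairpin. In MDA-MB-231 shCtrl 13 of the 31 genes were lower and 7 higher than in T47D shCtrl, beside 25.2% and 23.7% of all genes (49.0% in either direction). Which arrays were normalized together is unknown, and levels set across the lines depend on it. These differences share the shCtrl arrays with the knockdown effects above, and the values are given side by side without a test of their relation. The widest gap was in ERLIN2, which read 11.46 and 11.53 in T47D and 8.18 and 8.28 in MDA-MB-231, 9.62-fold lower (-3.27, SE 0.14, adjusted p = 7.10e-07). SEL1L was 6.09-fold lower (-2.61, SE 0.10, adjusted p = 3.69e-07), and its 3 other probe sets gave -2.35, -1.99 and -1.55. HERPUD2 was 3.97-fold lower, FAF2 3.43-fold, RNF139 2.78-fold, RNF185 2.12-fold and ERLIN1 2.01-fold. DERL1 stood at -0.82 by its brightest probe set but at -2.80 and -2.73 by the next, OS9 at -0.88, UBE2J1 at -0.69, ERLEC1 at -0.60 and DERL2 at -0.36. TRAM1L1 was lower too (-2.05), but under the median probe set in MDA-MB-231, so that its fold is not given. For ERLIN1 the second probe set gave 0.12 (adjusted p = 0.433), where the brightest gave -1.01. That of ERLEC1 gave -0.06 (adjusted p = 0.688), so that its lower level rests on the brightest probe set. For FAF2 the other probe set gave -0.74, where the brightest gave -1.78.

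UFD1 and AUP1 were the genes most above T47D in MDA-MB-231. UFD1 read 12.28 and 12.24 against 10.96 and 10.93, 2.48-fold higher (1.31, SE 0.08, adjusted p = 4.00e-06). AUP1 read 11.66 and 11.88 against 10.46 and 10.53, 2.41-fold higher (1.27, SE 0.11, adjusted p = 2.51e-05). Smaller excesses were those of SELENOK (0.49), VCP (0.46), UBE2G2 (0.44), MARCHF6 (0.30) and DERL3 (0.29). The next MARCHF6 probe sets gave larger ones of 0.84 and 1.03, and those under the median gave -0.12, -0.01 and 0.05. The number of higher genes fell from 7 to 3 without T47D shCtrl replicate 1, when VCP (adjusted p = 0.0601), UBE2G2 (0.0656), MARCHF6 (0.0676) and DERL3 (0.102) were lost. DERL3 was also lost without T47D shCtrl replicate 2 (0.0750) or MDA-MB-231 shCtrl replicate 1 (0.0508) or 2 (0.110), and DERL2 without T47D shCtrl replicate 2 (0.0878) or MDA-MB-231 shCtrl replicate 1 (0.0533) or 2 (0.0592). MARCHF6 was lost too without T47D shCtrl replicate 2 (0.0574) or MDA-MB-231 shCtrl replicate 2 (0.0779). EDEM1, HERPUD1, SELENOS, UBXN4 and NPLOC4 differed by less than 0.10 between the control groups, although a dimmer UBXN4 probe set gave -0.88 (adjusted p = 9.38e-05). With shXBP1 the gap of ERLIN1 went from -1.01 to 0.15 and that of DERL1 from -0.82 to 0.34, while that of EDEM2 went from 0.20 to 1.31 and that of VCP from 0.46 to 1.28. These are gaps of the brightest probe sets. The next DERL1 probe set stayed lower in MDA-MB-231, with means of 8.73 against 11.53 in T47D with shCtrl and 9.39 against 11.32 with shXBP1. The other VCP probe set had means of 10.36 against 9.43 with shCtrl and 10.17 against 9.32 with shXBP1, and that of ERLIN1 8.24 against 8.12 and 8.77 against 8.39.

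**Figure D4:**
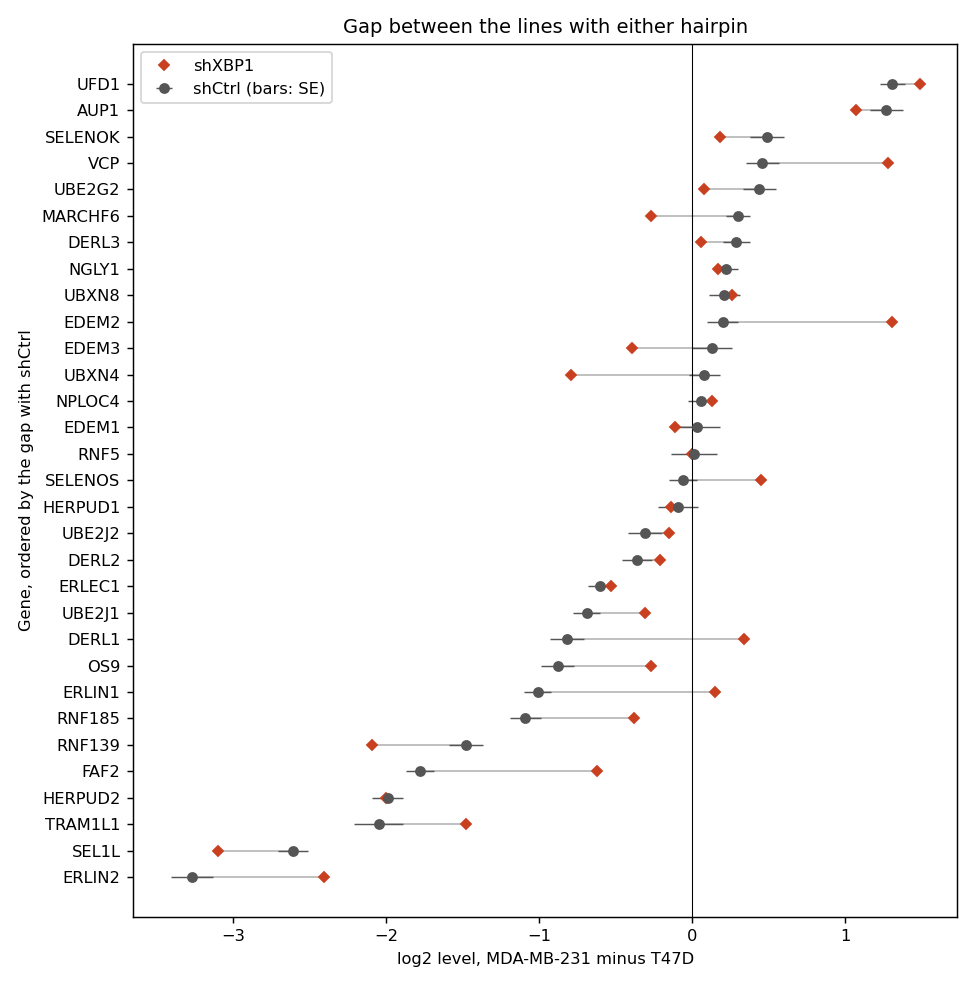
Gap between the lines (log2 level, MDA-MB-231 minus T47D) for each of the 31 ERAD genes with shCtrl (grey circles, bars are limma standard errors) and shXBP1 (red diamonds), ordered by the shCtrl gap. ERLIN2 and SEL1L lie furthest to the left and UFD1 and AUP1 at the top, and the long connecting lines of EDEM2, DERL1, ERLIN1 and FAF2 join gaps that differ between the hairpins.

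Beyond these genes, 52 other genes of the pathway were listed and 49 were measured. In T47D 12 of the 49 fell and 6 rose (36.7% in all, median -0.13), beside 13.5% and 15.5% of all genes (29.1% in all). In MDA-MB-231 5 fell and 10 rose (30.6% in all, median 0.08), beside 6.68% and 10.6% of all genes (17.2% in all). YOD1, a deubiquitinase that works with VCP, rose in T47D from 6.99 and 7.15 to 9.23 and 9.06 (2.07, SE 0.10, adjusted p = 1.97e-05), and read 11.24 and 11.31 against 10.93 and 11.02 in MDA-MB-231 (-0.30, adjusted p = 0.0930). JKAMP, a membrane protein that brings proteasomes to the ER, fell in T47D by 1.44 (SE 0.12) and in MDA-MB-231 by 0.50. The membrane ligase gene TRIM13 rose by 1.02 in T47D, and DNAJC10, the disulfide reductase partner of the EDEM proteins, fell by 0.73 there. In MDA-MB-231 the largest changes after RNF170 were UBE4B, a ubiquitin chain elongation factor (0.77), ATXN3, a deubiquitinase (0.66), and UGGT1, the glycoprotein folding sensor (-0.58). The effects differed between the lines for 15 of the 49 (30.6%, beside 24.8% of all genes), most for YOD1 (-2.37), RNF170 (1.49), USP25 (-1.03) and JKAMP (0.95). With shCtrl 37 of the 49 differed between the lines, 24 lower and 13 higher in MDA-MB-231 (75.5% in all, beside 49.0% of all genes), led by YOD1 (4.20), FBXO6, a glycoprotein-binding F-box protein (-4.18, with MDA-MB-231 under the median probe set, where differences are compressed), RNF170 (-3.05) and UBE4A (-2.05).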

How the data were processed

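For 8 arrays, the deposited log2 values cover 54675 probe sets. Per the submitters' processing notes it was made with RMA and affy 1.30.0. The sources used here do not say which arrays went into 1 normalization. RMA subtracts background, normalizes by quantiles and summarises probes on a log2 scale. The values carry no detection calls. They ran from 2.75 to 15.61, with array medians of 5.87 to 5.91, and replicate arrays correlated at 0.9957 to 0.9977.

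The GEO platform table supplied with the data gave 1 symbol to 41091 probe sets and several symbols to 1801, which were not used, and 11721 were unnamed. Symbols compared with RefSeq by gene identifier changed in 0 cases. The brightest single-symbol probe set, by its mean over the arrays, was kept for each of 19775 genes. No dim genes were left out.

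Group means were fitted together in limma 3.58.1 (R 4.3.3; lmFit and eBayes, two-sided) with 1 spread per gene and 4 residual degrees of freedom, because exact permutation of 2 against 2 arrays gives no p below 0.333. The code was tested on simulated arrays. Intervals are 95%. The array number limits the precision.

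The members, the lists and the tests were chosen with earlier results of these data known. Every member was to be named, with full statistics for those passing a comparison, and for the other pathway genes the 4 largest changes per comparison. Promoter sequences came from RefSeq tables (GRCh38.p14) and were matched by symbol.

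Same-numbered replicates did not deviate together (correlation of deviations 0.002 in T47D and -0.069 in MDA-MB-231), so no pairing was used. Alternatives left out each array, added a replicate block, left out dim genes, averaged probe sets, normalized again, used trend and robust fitting, or fitted only the groups compared.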

Additional observations from a re-analysis of the deposited data

Results flagged for a closer look

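The knockdown effect differed between the lines for 13 ERAD genes by limma's test of the difference itself (MDA-MB-231 effect minus T47D effect, adjusted p under 0.05), and each is listed for that reason. Values above 0 were those of FAF2 (1.16, adjusted p = 0.000833), ERLIN1 (1.16, 0.000665), DERL1 (1.15, 0.00186), EDEM2 (1.11, 0.00154), ERLIN2 (0.85, 0.0180), VCP (0.82, 0.00752), RNF185 (0.70, 0.00857), OS9 (0.61, 0.0225) and SELENOS (0.51, 0.0206). Those below 0 were UBXN4 (-0.87, 0.00301), RNF139 (-0.62, 0.0224), MARCHF6 (-0.57, 0.00934) and SEL1L (-0.49, 0.0389). For FAF2 the other probe set gave -1.03 (adjusted p = 0.00335) and the mean of both 0.07 (adjusted p = 0.726), so its direction is not settled. Of the 13, by their brightest probe sets, DERL1, EDEM2, ERLIN1, FAF2, MARCHF6, RNF185, UBXN4 and VCP passed whichever single array was left out. Averaging probe sets lost the differences of UBXN4 (-0.30, adjusted p = 0.179), MARCHF6 (-0.16, 0.387) and SEL1L (-0.51, 0.0814), besides FAF2. The second probe sets of VCP (-0.08, adjusted p = 0.753), ERLIN1 (0.26, 0.305) and ERLIN2 (0.39, 0.146) did not pass. XBP1 itself fell further in T47D than in MDA-MB-231, and the part of this in the 13 differences was not tested. Groups of 2 arrays are too small for a check of outlying samples.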

How the results depend on the processing

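With each array left out in turn, the number of ERAD genes that fell ranged from 5 to 11 in T47D (10 with all arrays; 5 without T47D shCtrl replicate 2 and 6 without T47D shXBP1 replicate 2) and from 4 to 6 in MDA-MB-231 (7 with all; 4 without MDA-MB-231 shCtrl replicate 2). The number that rose stayed at 3 in T47D and ranged from 4 to 6 in MDA-MB-231. Differences between the lines' effects ranged from 6 to 9 above 0 and from 2 to 5 below 0 (4 with all arrays; 2 without any 1 of the 4 T47D arrays or MDA-MB-231 shCtrl replicate 1). Between the control groups 3 to 7 were higher and 12 to 13 lower in MDA-MB-231.

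The mean over probe sets left 1 rise in T47D and 1 difference below 0 between the lines' effects. Trend and robust fitting gave 7 such differences. Some alternatives also added falls in T47D, which were 10 in the main fit. They numbered 14 with trend and robust fitting, 12 with dim genes left out and 11 with only the T47D arrays fitted, but 9 with the mean over probe sets. Trend and robust fitting added ERLEC1, UBXN4 and UFD1 (adjusted p = 0.01, 0.00774 and 0.0108), besides EDEM1. Leaving out dim genes added the same genes except EDEM1 (0.0395, 0.0361 and 0.039). UBE2J2 joined the rises in MDA-MB-231 under both alternatives (0.0129 and 0.0313). Fitting only the MDA-MB-231 arrays left 3 falls there. The sign turned with the mean over probe sets for FAF2 in T47D (0.05), and, between the control groups, for UBE2J2 (0.05) and NGLY1 (-0.31, adjusted p = 0.0299), which had not passed in the text's comparison; the cause was not tested beyond their probe sets. Apart from leaving out arrays, all other alternatives kept these counts within 1.5 times. The replicate block, for numbers that do not pair the samples, lost SELENOK (adjusted p = 0.0503) and AUP1 (0.0662) in MDA-MB-231 and the difference of SEL1L (0.0625). Testing every probe set on its own, chosen after seeing the data, lost AUP1 (0.0518) and the difference of SEL1L (0.0548). Of 58 calls over the 4 comparisons, 39 held whichever array was left out, and of 855 values under alternatives for them 767 kept the call, 87 lost it and 1 turned.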

Other observations

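Secondary probe sets of ERAD genes held changes that the brightest ones did not show (limma, p-values adjusted over all probe sets). The dimmer probe set of DERL2 went from a mean of 8.05 to 7.62 in T47D (-0.43, adjusted p = 0.0156) and from 7.24 to 7.63 in MDA-MB-231 (0.39, adjusted p = 0.0361), opposite effects that differed by 0.82 (adjusted p = 0.00525). Those are the directions of its relative DERL1 at its brightest probe set. The dimmer NGLY1 probe set, near the array median, fell by 0.63 in T47D (adjusted p = 0.0347), and that of ERLEC1 fell by 0.38 there (adjusted p = 0.0208), where the brightest gave -0.21. For UBE2J1 the probe set with the widest gap between the lines' effects had 0.91 (adjusted p = 0.00386), where the brightest had 0.39. These probe sets were picked after their values were seen.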
